A study of Mus musculus with 12 samples.

Results

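The genes described here move glucose and lactate across the membranes of retinal cells, or belong to the rod-derived factors that act on those transporters. They were taken by gene name: Slc2a1, Slc2a3, Slc16a1, Slc16a3, Slc16a7, Slc16a8, Bsg, Nxnl1, Nxnl2 and Txnip, which are 10 of the 55866 gene symbols in the deposited table of scaled counts, and all 10 were also in the table of TPM, the share of a library's transcripts after division by length. Retinas came from 2-month-old mice of 2 genotypes, Abca4-/- (Abca4Ko) and Abca4+/+ littermates (control), and all of them carried the RiboTag allele and the rod Cre line i75-Rod-Cre, in which a rod promoter drives Cre, so a tagged ribosomal protein was made in rods of both genotypes. Cycloheximide, which stalls ribosomes where they are, was perfused, and the tissue was then flash-frozen. For each genotype 3 libraries were made from messages pulled down with the tagged ribosomes (rod TRAP, translating ribosome affinity purification) and 3 from the lysate before the pull-down (retina), giving 12 libraries in 4 groups. The mice of a group came from combined litters, and the sex of the animals behind each library is not given in the sources used here.

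Photoreceptors take up most of the glucose that reaches the outer retina and release much of its carbon as lactate. Facilitated glucose carriers of the Slc2 family let glucose in, and proton-coupled monocarboxylate carriers of the Slc16 family carry lactate out of glycolytic cells or into cells that burn it. Basigin, the product of Bsg, brings Slc16 carriers to the cell surface, and rods secrete a thioredoxin-like factor made from Nxnl1 that binds a basigin form on cones and raises their glucose uptake through the Slc2a1 carrier. Txnip encodes a protein that binds thioredoxin and takes Slc2a1 off the surface. Abca4 encodes the transporter that clears retinaldehyde derivatives from outer segment discs.

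To show what lies ahead of the start sites of the members that were higher on rod ribosomes, promoter sequence was read from RefSeq for GRCm38.p6, where 7 of the 10 members had an entry. The 250 bases before the start were searched on both strands for TAATCC, the core of sites bound by the photoreceptor factor Crx, for TGCTGAC, part of sites bound by the rod factor Nrl, for the E-box CACGTG and for the carbohydrate response element, written as CACGNG, any 5 bases and CACGNG again. The windows of Nxnl1 (chr8:71566650-71566899, minus strand), Nxnl2 (chr13:51170775-51171024, plus strand) and Slc16a1 (chr3:104638414-104638663, plus strand) are shown because these were the 3 members with the largest rise in control rod TRAP. Capitals mark the motif matches, and each sequence is written 5′ to 3′ on the strand of its gene.
Nxnl1: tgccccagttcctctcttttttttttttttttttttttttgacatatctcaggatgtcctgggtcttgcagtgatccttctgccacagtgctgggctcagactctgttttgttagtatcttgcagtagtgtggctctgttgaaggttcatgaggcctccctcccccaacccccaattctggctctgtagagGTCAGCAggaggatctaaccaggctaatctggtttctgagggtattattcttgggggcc
Nxnl2: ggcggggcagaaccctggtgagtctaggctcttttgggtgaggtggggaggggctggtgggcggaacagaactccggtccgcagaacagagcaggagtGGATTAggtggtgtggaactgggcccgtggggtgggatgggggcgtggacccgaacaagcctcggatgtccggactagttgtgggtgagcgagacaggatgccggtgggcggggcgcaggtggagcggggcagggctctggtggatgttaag
Slc16a1: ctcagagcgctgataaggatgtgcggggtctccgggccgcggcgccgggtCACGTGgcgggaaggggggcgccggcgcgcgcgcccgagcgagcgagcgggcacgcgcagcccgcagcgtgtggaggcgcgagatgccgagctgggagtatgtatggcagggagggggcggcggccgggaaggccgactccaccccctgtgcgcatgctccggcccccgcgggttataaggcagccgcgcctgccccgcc

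In Nxnl1 the capitals are TGCTGAC on the opposite strand, beginning 59 bases before the start. In Nxnl2 they are TAATCC on the opposite strand, 152 bases before the start. Slc16a1 held CACGTG, which reads the same on both strands, 200 bases before the start. Of 32851 promoter windows of this length, 3.81% held TGCTGAC, 6.25% held TAATCC and 6.02% held CACGTG. Txnip held the carbohydrate response element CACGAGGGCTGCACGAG 85 bases before the start, a pattern found in 15 windows, or 0.0457% of them. All 250 bases of the Txnip window lie in exons of the GENCODE annotation, so the window is transcribed in that annotation. The windows of Slc2a1, Slc16a3 and Slc16a8 held none of the 4 motifs, which says only that these letters were not in those 250 bases, and Slc2a3, Slc16a7 and Bsg were not looked up elsewhere. No motif overlapped another. A match describes the sequence, and binding was not measured here.

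Library totals of the scaled counts were nearly equal within a fraction, 17096515 to 17097707 for rod TRAP and 17860761 to 17862326 for retina, which is a product of the authors' scaling. The spacing of low values put the reads behind them at about 16180000 to 18190000 in rod TRAP and 14760000 to 23150000 in retina. The targeted gene Abca4 checked the labels. Control rod TRAP replicates 1 to 3 held 61017, 53193 and 53533 scaled counts of it, against 195, 365 and 13156 in Abca4Ko rod TRAP. Control retina held 38929, 37619 and 38090 and Abca4Ko retina 153, 366 and 8124 scaled counts. The libraries labelled Abca4Ko replicate 3 thus held 23.5% and 21.3% of the control mean in the 2 fractions, which goes against their label, so each member's genotype value is given with and without them. Replicate 1 of both retina groups stood apart in another way. In Abca4Ko retina replicate 1 the 10 Müller glia markers summed to 3316 TPM against 5898 and 5608 TPM in replicates 2 and 3, and its 8 bipolar cell markers to 571.5 TPM against 1309 and 1290 TPM. In control retina replicate 1 the same sums were 4120 TPM against 6143 and 6387 TPM, and 812.4 TPM against 1286 and 1293 TPM. In control mice all 10 rod markers rose in rod TRAP against retina (median log2 difference 1.37), and all 10 Müller glia markers fell (median −4.38), while 8 of 9 cone markers fell and 1 rose. Rlbp1 and Glul head the Müller glia list.

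Levels of different genes were compared in TPM, a scale that divides by transcript length. Bsg was highest in each of the 4 groups, at 1280 ± 50.8 TPM in control rod TRAP (SD, n = 3) and 1505 ± 223 TPM in control retina. In control rod TRAP the order below it was Nxnl1 (572 ± 22.1 TPM), Nxnl2 (301 ± 11.2 TPM), Slc16a1 (216 ± 8.41 TPM), Slc2a1 (169.3 ± 8.34 TPM), Slc16a3 (105 ± 11.0 TPM), Slc2a3 (3.63 ± 0.513 TPM), Txnip (0.50 ± 0.26 TPM), Slc16a8 (0.133 ± 0.115 TPM) and Slc16a7, which was listed at 0. Only Slc16a8 and Slc16a7 overlapped as neighbours in that order, and Abca4Ko rod TRAP had the same order, with overlap also between Txnip and Slc16a8. In control retina the order below Nxnl1 was different: Nxnl2 (197 ± 19.6 TPM) overlapped Slc2a1 (171 ± 24.6 TPM), Slc16a3 (84.8 ± 10.2 TPM) overlapped Slc16a1 (76.5 ± 16.1 TPM), and Slc2a3 stood at 39.4 ± 5.76 TPM. In Abca4Ko retina Slc16a1 (86.5 ± 11.5 TPM) lay above Slc16a3 (55.4 ± 12.8 TPM) with no overlap. The plot of TPM by library shows these values gene by gene.

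**Figure D1:**
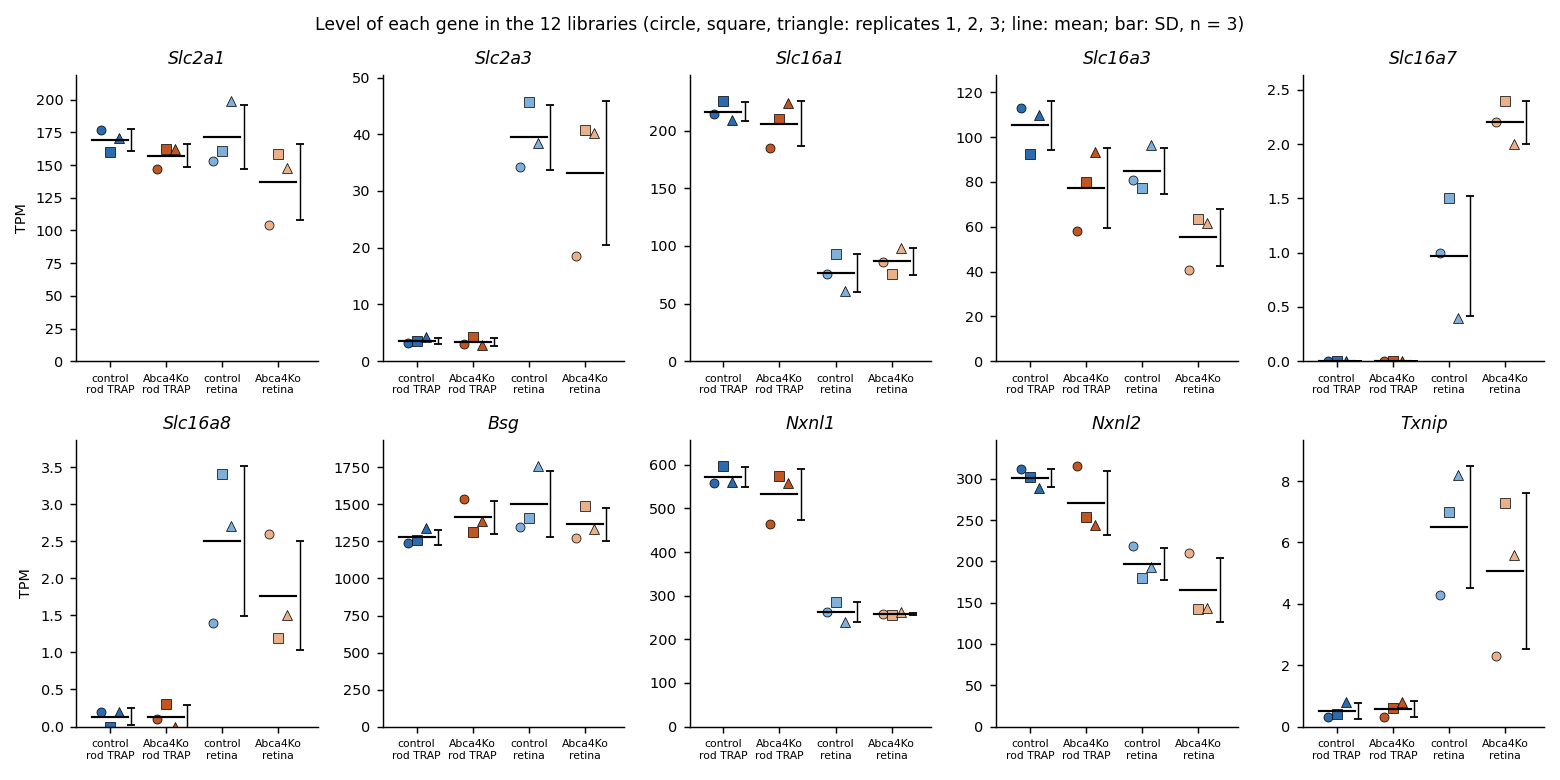
TPM (vertical axis, from 0) of the 10 genes in each of the 12 libraries, by group; circles, squares and triangles are replicates 1, 2 and 3, lines are means and bars are SD (n = 3). Slc16a1, Nxnl1 and Nxnl2 were higher in both rod TRAP groups, Slc2a3, Slc16a7, Slc16a8 and Txnip were near 0 there, and Slc2a1 and Bsg lay at similar TPM in the 2 fractions.

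To see which members are carried on rod ribosomes, the 2 fractions of each genotype were set against each other. Among control libraries 4 members rose in rod TRAP (Slc16a1, Nxnl1, Nxnl2, Slc16a3), 4 fell (Slc2a3, Txnip, Slc16a7, Slc16a8) and 2 did not pass the test (Slc2a1, Bsg), in limma fits at a Benjamini-Hochberg adjusted p under 0.05 over all genes. This count of 8 of 10 stood against 75.4% of the 16286 genes tested, so the share of members called was close to that of all genes, 36.6% of which rose and 38.8% fell. At an unadjusted limma p under 0.05 the share of all genes was 76.9%, and the scaled values of the groups did not overlap for 79.7%. In Abca4Ko mice 9 of 10 were called, 5 higher and 4 lower, against 64.1% of 16036 genes, 30.4% higher and 33.7% lower. In both genotypes Slc16a7 and Txnip were tested through their retina libraries, so their calls could only be falls. Without both libraries labelled Abca4Ko replicate 3, 4 of the 9 members that could be tested were called in Abca4Ko, namely Slc2a3, Slc16a1, Nxnl1 and Txnip, and the share of all genes called fell as well, to 43.5% of 13150. Both fits put the median gene near 0 (−0.03 in control and 0.0044 in Abca4Ko on the log2 scale), whereas the authors' scaling put it at −0.62 and −0.49. Fold changes of moderate size therefore depend on the scaling, and each is relative to the median gene of its fit. Between the genotypes of such bulk samples, fewer cells of a type and less RNA per cell cannot be told apart.

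Slc2a1 encodes the main glucose carrier of photoreceptors and of the blood-retina barrier. It had 176.6, 160.2 and 171.0 TPM in control rod TRAP and 153.4, 161.1 and 199.3 TPM in control retina, so the fractions overlapped. Abca4Ko rod TRAP had 146.8, 162.0 and 162.2 TPM and Abca4Ko retina 104.5, 158.8 and 147.9 TPM, with overlap again. The log2 fold change of rod TRAP over retina was 0.31 (SE 0.15) in control, with a limma adjusted p of 0.0739, and 0.48 (SE 0.15) in Abca4Ko, with a limma adjusted p of 0.0149. Blocking on the replicate number, the control value had a limma adjusted p of 0.0457, and without control retina replicate 3 it was 0.34 (limma adjusted p = 0.00118). In Abca4Ko the call was lost without any 1 of the rod TRAP libraries (0.44 to 0.50, limma adjusted p of 0.0510 to 0.0522). Under the authors' scaling the value turned to −0.34 (limma adjusted p = 0.0354) in control and −0.06 in Abca4Ko. The direction of Slc2a1 was thus set by the scaling. Endothelial cells and pericytes also carry Slc2a1. Their 10 markers, headed by Cldn5 and Pecam1, summed to 3.10 to 4.20 TPM in control rod TRAP against 47.4 to 86.1 TPM in control retina. Cdh5 and Abcc9 were listed at 0 in all rod TRAP libraries, whereas Pecam1 had means of 2.1 TPM in control rod TRAP and 3.77 TPM in control retina. In control 9 of the 10 markers fell and 1 was not called, and their part in the retina level of Slc2a1 was not tested.

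Slc2a3 encodes the high-affinity glucose carrier of many neurons, and its log2 fold change was the lowest of the members in both genotypes, although the share left in rod TRAP was smaller for Slc16a7 and Txnip. It had 3.2, 3.5 and 4.2 TPM in control rod TRAP against 34.2, 45.6 and 38.5 TPM in control retina. The Abca4Ko values were 3.1, 4.2 and 2.9 TPM in rod TRAP against 18.5, 40.8 and 40.3 TPM in retina. The groups did not overlap in either genotype, and Abca4Ko retina replicate 1, with its low Müller glia and bipolar sums, was the lowest retina library. Its log2 fold change was −3.05 (SE 0.13, limma adjusted p = 9.58e-10) in control and −2.80 (SE 0.23, limma adjusted p = 1.68e-06) in Abca4Ko. Rod TRAP held 7.31% of the retina value in control, from summed scaled counts as a share of the fraction's total (exact 95% interval 6.53% to 8.15%, counting error only) and 9.04% (8.09% to 10.1%) in Abca4Ko. These shares lack the rescaling of the fits, in which the folds relative to the median gene were 0.121 in control and 0.143 in Abca4Ko. The median log2 fold changes of the Müller glia, bipolar and amacrine lists in control were −4.38, −4.54 and −4.00, each lower than the value of Slc2a3.

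Together the 2 glucose carriers summed to 173 ± 8.29 TPM in control rod TRAP and 211 ± 25.3 TPM in control retina (SD, n = 3). Slc2a1 made up 98.2%, 97.9% and 97.6% of that sum in the control rod TRAP libraries and 97.9%, 97.5% and 98.2% in the Abca4Ko ones. In retina its share was 81.8%, 77.9% and 83.8% in control and 85.0%, 79.6% and 78.6% in Abca4Ko. The shares of the 2 fractions did not overlap, and those of the 2 genotypes did. A share within a library does not depend on how the libraries are scaled to each other.

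**Figure D2:**
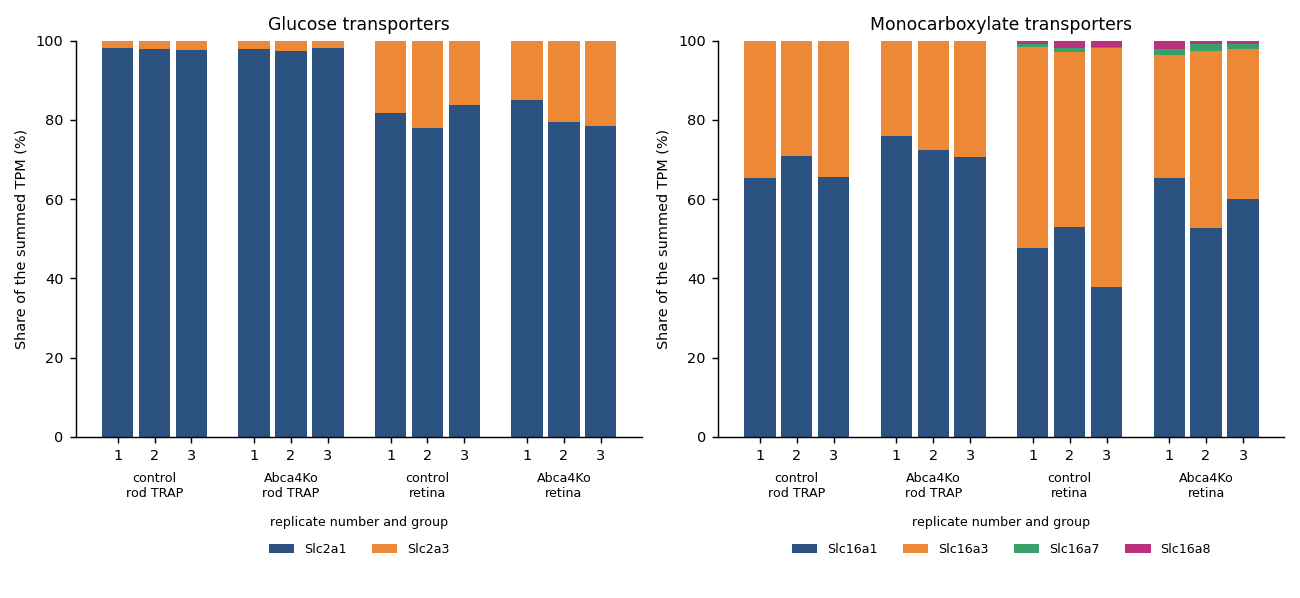
Share of the summed TPM (vertical axis, percent) taken by Slc2a1 and Slc2a3 (left) and by Slc16a1, Slc16a3, Slc16a7 and Slc16a8 (right), 1 bar per library in each of the 4 groups. Slc2a1 took 97.5% to 98.2% of the left sum in rod TRAP and 77.9% to 85.0% in retina, and Slc16a1 took a larger part of the right sum in rod TRAP than in retina of the same genotype.

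Slc16a1 encodes MCT1, a widely used lactate carrier that works in both directions, and it rose the most of the members. It had 214.5, 225.6 and 209.1 TPM in control rod TRAP and 76.0, 92.8 and 60.6 TPM in control retina. Abca4Ko rod TRAP had 184.7, 209.7 and 224.0 TPM and Abca4Ko retina 86.1, 75.3 and 98.2 TPM. Every rod TRAP library lay above every retina library, and the lowest rod TRAP value was from Abca4Ko replicate 1. On the log2 scale it was higher by 1.83 (SE 0.12, limma adjusted p = 2.93e-08) in control and 1.51 (SE 0.18, limma adjusted p = 2.50e-05) in Abca4Ko, and it stayed called under the authors' scaling at 1.18 and 0.97. The rod marker list had medians of 1.37 and 1.42 in the fits that gave 1.83 and 1.51, and of 0.728 and 0.877 under the authors' scaling.

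Slc16a3 encodes MCT4, the carrier that many strongly glycolytic cells use to release lactate. It had 113.2, 92.7 and 110.0 TPM in control rod TRAP and 80.8, 77.1 and 96.4 TPM in control retina. The Abca4Ko libraries had 58.2, 80.1 and 93.6 TPM in rod TRAP and 40.7, 63.7 and 61.8 TPM in retina. The TPM of the fractions overlapped in both genotypes, and Abca4Ko replicate 1 was the lowest library in each fraction. On the TMM scale the log2 fold change was 0.65 (SE 0.16, limma adjusted p = 0.00233) in control and 0.74 (SE 0.16, limma adjusted p = 0.00224) in Abca4Ko. The authors' scaling left 0.0044 (limma adjusted p = 0.980) in control and 0.21 (limma adjusted p = 0.328) in Abca4Ko, so the call was lost, as it was in Abca4Ko without both libraries labelled replicate 3 (0.55, limma adjusted p = 0.0508) and on log2(TPM + 1) (0.31 in control, limma adjusted p = 0.0535).

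Slc16a7 encodes MCT2, a high-affinity carrier that lets neurons take up lactate, and it was barely read in rods. It was listed at 0 TPM in all 6 rod TRAP libraries, where the scaled counts were 3, 2 and 2 in control and 2, 1 and 5 in Abca4Ko. In retina the scaled counts were 51, 71 and 36 in control and 41, 70 and 110 in Abca4Ko. Summed over libraries, rod TRAP held 4.63% of the retina value in control (exact 95% interval 1.83% to 9.76%) and 3.78% (1.61% to 7.58%) in Abca4Ko. The fitted log2 fold changes of −2.05 (SE 0.21, limma adjusted p = 1.73e-06) and −2.44 (SE 0.28, limma adjusted p = 2.39e-05) understate the fall of a gene this near 0. Only its retina values were high enough for the gene to be tested, so a call could only be a fall.

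Slc16a8 encodes MCT3, the lactate carrier on the basal side of the retinal pigment epithelium, and the 2 tables gave it different ratios. It had 0.2, 0 and 0.2 TPM in control rod TRAP against 1.4, 3.4 and 2.7 TPM in control retina, and 0.1, 0.3 and 0 TPM against 2.6, 1.2 and 1.5 TPM in Abca4Ko. The scaled counts were 23, 14 and 22 in control rod TRAP against 53, 69 and 67 in control retina, and 15, 19 and 21 against 80, 36 and 74 in Abca4Ko. Rod TRAP thus held 32.6% of the retina value by scaled counts in control (exact 95% interval 23.9% to 43.9%) but 5.33% by TPM. It fell by a log2 value of −0.79 (SE 0.22, limma adjusted p = 0.00511) in control and −0.89 (SE 0.31, limma adjusted p = 0.0257) in Abca4Ko. As folds these are 0.580 and 0.539 relative to the median gene, whereas the 32.6% uses the authors' totals. The Abca4Ko call was lost without any 1 of rod TRAP replicate 1 or 2 or retina replicate 1 or 3 (−0.92 to −0.71, limma adjusted p of 0.0514 to 0.0868). The 10 pigment epithelium markers, headed by Rpe65 and Best1, summed to 7.20 to 16.8 TPM in control rod TRAP and to 218 to 510 TPM in control retina. Rpe65 and Best1 were a small part of that sum, with means of 3.7 and 0.8 TPM in control retina. Pmel, Mlana and Tyrp1 had 110.9, 68.3 and 49.3 TPM there. The markers did not move together. In Abca4Ko retina replicates 1 to 3 Rpe65 had 7.0, 2.6 and 1.3 TPM, and Pmel had 1.8, 102.6 and 53.4 TPM. The part of the listed messages in the retina level of Slc16a8 was not tested.

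The 4 monocarboxylate carriers summed to 322 ± 5.28 TPM in control rod TRAP and 165 ± 8.76 TPM in control retina. Slc16a1 made up 65.4%, 70.9% and 65.5% of the sum in control rod TRAP and 47.7%, 53.1% and 37.9% in control retina. In Abca4Ko its share was 76.0%, 72.3% and 70.5% in rod TRAP and 65.4%, 52.8% and 60.1% in retina. Within each genotype the fractions did not overlap. The ratio of Slc16a1 to Slc16a3 was 2.08 ± 0.309 in control rod TRAP, 2.73 ± 0.402 in Abca4Ko rod TRAP, 0.924 ± 0.288 in control retina and 1.63 ± 0.468 in Abca4Ko retina (SD, n = 3 each). The control rod TRAP ratios of 1.90, 2.43 and 1.90 overlapped the Abca4Ko ones of 3.17, 2.62 and 2.39, and the retina ratios of the genotypes also overlapped.

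Bsg encodes basigin, the partner that MCT1 and MCT4 need to reach the membrane, and the tables do not separate the photoreceptor form from the short one. It had 1242.7, 1259.1 and 1337.7 TPM in control rod TRAP and 1349.0, 1405.5 and 1760.5 TPM in control retina. Abca4Ko libraries had 1534.2, 1315.7 and 1388.8 TPM in rod TRAP and 1273.9, 1488.6 and 1337.3 TPM in retina. The control TPM did not overlap, with retina higher, and the Abca4Ko TPM did. The log2 fold change was 0.16 (SE 0.14, limma adjusted p = 0.342) in control and 0.36 (SE 0.20, limma adjusted p = 0.138) in Abca4Ko, and it turned to −0.49 (limma adjusted p = 0.00435) and −0.18 (limma adjusted p = 0.280) under the authors' scaling. Without control retina replicate 3, its highest library, the control value was 0.19 (limma adjusted p = 0.0369), and without control retina replicate 2 it was −0.02 (limma adjusted p = 0.909). Both the call and the direction of Bsg thus depended on the scaling and on single libraries.

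Nxnl1 encodes rod-derived cone viability factor, and Nxnl2 a second factor of the same family, each with a secreted short form and a longer thioredoxin-like form that the tables do not separate. Nxnl1 had 558.6, 597.4 and 559.5 TPM in control rod TRAP and 261.4, 286.2 and 240.0 TPM in control retina. Its Abca4Ko levels were 465.1, 574.4 and 557.7 TPM in rod TRAP and 259.0, 256.8 and 261.4 TPM in retina. Every rod TRAP library lay above every retina library. Its rise on the log2 scale was 1.43 (SE 0.11, limma adjusted p = 8.65e-08) in control and 1.28 (SE 0.20, limma adjusted p = 0.000206) in Abca4Ko, and both calls held under the authors' scaling at 0.79 and 0.74. The values of 1.43 and 1.28 lay within the range of the rod markers, 1.03 to 4.65 in control and 1.12 to 3.72 in Abca4Ko. Under the authors' scaling that range was 0.38 to 4.01 in control and 0.584 to 3.18 in Abca4Ko, and 0.79 and 0.74 lay within it.

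Nxnl2 had 311.7, 301.7 and 289.3 TPM in control rod TRAP and 218.3, 179.7 and 192.7 TPM in control retina. In Abca4Ko it had 315.7, 253.8 and 243.8 TPM in rod TRAP and 210.7, 142.4 and 143.1 TPM in retina. The fractions did not overlap within a genotype, and replicate 1 was the highest in each of the 4 groups. The rise on the log2 scale was 0.90 (SE 0.14, limma adjusted p = 7.00e-05) in control and 0.92 (SE 0.27, limma adjusted p = 0.0122) in Abca4Ko, below all 10 rod markers in both genotypes. Under the authors' scaling it was 0.25 (limma adjusted p = 0.0822) and 0.39 (limma adjusted p = 0.175), so the call was lost. In Abca4Ko it was also lost without rod TRAP replicate 1 or retina replicate 2 or 3 (0.72 to 0.79, limma adjusted p of 0.0511 to 0.0722). The ratio of Nxnl1 to Nxnl2 TPM was 1.90 ± 0.0980 in control rod TRAP and 1.34 ± 0.216 in control retina, with no overlap between the libraries of the 2 fractions. In Abca4Ko it was 1.47, 2.26 and 2.29 in rod TRAP and 1.23, 1.803 and 1.83 in retina, and the fractions overlapped.

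Txnip, the brake on glucose uptake, was near 0 in rods. It had 0.3, 0.4 and 0.8 TPM in control rod TRAP and 4.3, 7.0 and 8.2 TPM in control retina. In Abca4Ko its levels were 0.3, 0.6 and 0.8 TPM in rod TRAP and 2.3, 7.3 and 5.6 TPM in retina. Summed scaled counts in rod TRAP, as shares of the totals, were 6.04% of the retina value in control (exact 95% interval 4.00% to 8.78%) and 6.38% (4.04% to 9.63%) in Abca4Ko. The log2 fold change was −2.76 (SE 0.29, limma adjusted p = 1.70e-06) in control and −2.52 (SE 0.31, limma adjusted p = 3.29e-05) in Abca4Ko. As folds these are 0.148 and 0.174 relative to the median gene, whereas the shares use the authors' totals. Every rod TRAP library lay below every retina library in both genotypes. The scaled counts of Txnip were 7, 5 and 17 in control rod TRAP and 7, 10 and 7 in Abca4Ko rod TRAP. With counts this low it was tested through its retina libraries, so a call could only be a fall.

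**Figure D3:**
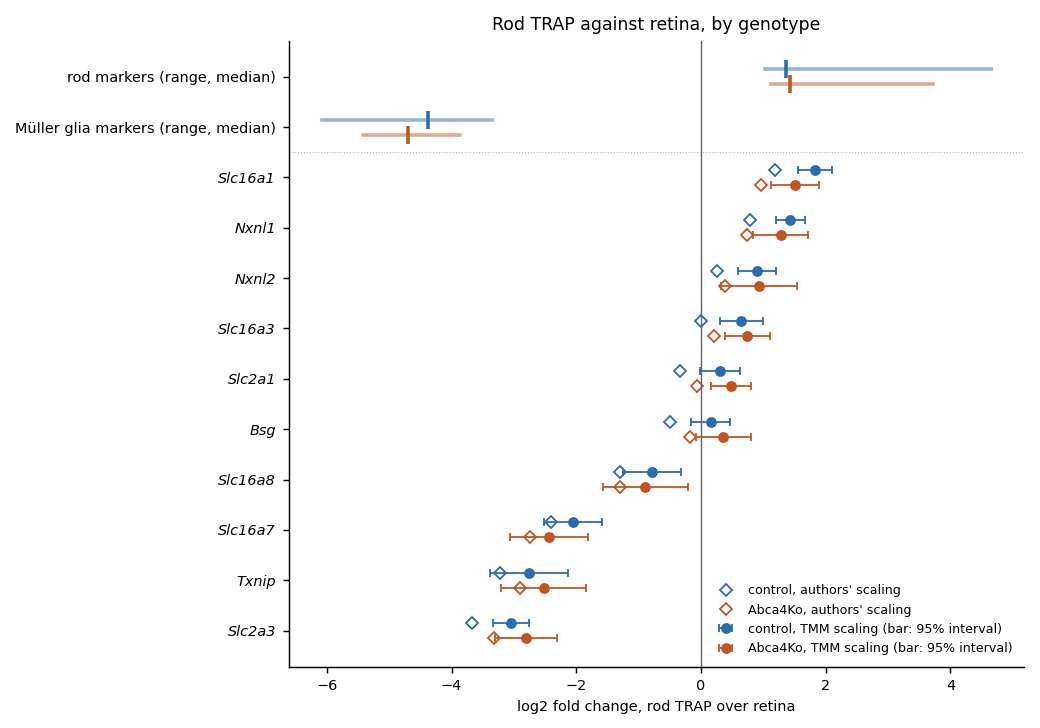
Log2 fold change of rod TRAP over retina (horizontal axis) for the 10 genes, in control (blue) and Abca4Ko (orange); filled points with 95% intervals are on the TMM scale, open diamonds on the authors' scale, and the upper bars give the range and median of the 10 rod and 10 Müller glia markers. Slc2a3, Txnip, Slc16a7 and Slc16a8 lay below 0 and Slc16a1 and Nxnl1 above 0 on both scales, while Slc2a1 and Bsg changed side with the scaling in both genotypes.

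Related genes were taken from a list of 39 family members and partners. In control, 31 of them were tested, of which 4 rose, 23 fell and 4 did not pass the test, with a median log2 fold change of −0.997. In Abca4Ko, 29 were tested, of which 4 rose and 20 fell, with a median of −1.08. Of all genes, 36.6% rose and 38.8% fell in control, and 30.4% and 33.7% in Abca4Ko. A gene was tested if 3 libraries had at least 10 scaled counts, which the 3 retina libraries alone could supply. Such a gene could only be called as a fall. Without control retina replicate 1, 21 of the list and 13446 of all genes could be tested, against 31 and 16286. The larger share of falls in the list is therefore not read as a result about these families. The list's calls numbered 16 and 17 without control retina replicates 1 and 2, and 15, 10 and 12 without Abca4Ko retina replicates 1, 2 and 3, when 21 and 19 of its genes could be tested. Without both libraries labelled Abca4Ko replicate 3 they numbered 7 of 19, against 43.5% of all genes tested. Of the 12 further hexose carriers, 6 were tested in each genotype, of which 5 fell and 1 did not pass the test. Slc45a1, a brain hexose carrier, had 0.1, 0.2 and 0.1 TPM in control rod TRAP against 7.5, 11.2 and 11.0 TPM in retina, with a log2 fold change of −4.49 (limma adjusted p = 1.43e-09). Slc2a6, a lysosomal carrier, changed by −3.01 (limma adjusted p = 5.42e-08) in control, and Slc2a13, the proton-coupled inositol carrier, by −3.37 (limma adjusted p = 7.27e-06) in Abca4Ko.

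Of the other monocarboxylate carriers and partner proteins, all 13 tested were called in control, 2 higher and 11 lower. Of all genes, 36.6% were higher and 38.8% lower, and genes tested through the retina libraries alone are among these falls too. Slc16a6, a carrier of ketone bodies, had 189.5, 191.4 and 220.2 TPM in control rod TRAP against 73.9, 89.1 and 45.4 TPM in retina. It rose on the log2 scale by 1.67 (SE 0.17, limma adjusted p = 1.10e-06), and 1.13 (limma adjusted p = 0.000189) in Abca4Ko. At 200.4 TPM its level in control rod TRAP was close to that of Slc16a1. Nptn, neuroplastin, a relative of basigin that also partners Slc16 carriers, rose by 0.62 (limma adjusted p = 0.000194) in control, where the authors' scaling turned it to −0.03 (limma adjusted p = 0.809). Emb, embigin, another such partner, changed by −3.31 (limma adjusted p = 2.78e-07) in Abca4Ko. Of the 12 thioredoxin and alpha-arrestin genes tested, 2 rose and 7 fell in control, against the same shares of all genes. Arrdc3, an alpha-arrestin related to Txnip, rose by 2.15 (SE 0.17, limma adjusted p = 1.27e-07) in control and by 1.22 (limma adjusted p = 7.70e-05) in Abca4Ko, opposite in sign to Txnip. Nxn, nucleoredoxin, fell in control with a log2 fold change of −2.71 (limma adjusted p = 3.57e-08), and Txnrd1, the cytosolic thioredoxin reductase, rose by 0.55 (limma adjusted p = 0.00435) in Abca4Ko, which was 0.01 (limma adjusted p = 0.9428) under the authors' scaling.

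To ask whether loss of Abca4 alters these genes, Abca4Ko was compared with control within each fraction. None of the members was called in either fraction with limma, 0 of 8 tested in rod TRAP (Slc16a7 and Txnip were too low to test) and 0 of 10 in retina. Of all genes, 1.13% of 13104 were called in rod TRAP, 0.733% higher and 0.397% lower, and 0.106% of 16964 in retina, 0.0884% higher and 0.0177% lower. These calls over all genes, 148 and 18, moved with single libraries, to 594 without Abca4Ko rod TRAP replicate 1, to 36, 30 and 33 without control rod TRAP replicates 1, 2 and 3, and to 1, 4, 10 and 1 without Abca4Ko retina replicate 1 or 2 or control retina replicate 1 or 3. At an unadjusted limma p under 0.05 there was 1 member in each fraction, Slc16a3 both times, against 10.4% and 12% of all genes. Of the alternative settings tried, 1 called a member, Nxnl2, in rod TRAP. These comparisons share their control and Abca4Ko libraries with the fraction comparisons.

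Slc16a3 was lower in Abca4Ko in both fractions without passing the adjusted threshold. Its TPM by library, given above, overlapped between genotypes in rod TRAP, where the highest Abca4Ko value was 93.6 and the lowest control value 92.7, and did not overlap in retina, where the highest Abca4Ko value was 63.7 and the lowest control value 77.1. Groups did not overlap for 19.9% of all genes tested in retina. Its log2 fold change was −0.37 (95% interval −0.64 to −0.11, limma adjusted p = 0.262) in rod TRAP and −0.58 (−0.996 to −0.17, limma adjusted p = 0.3998) in retina. Without the library labelled Abca4Ko replicate 3 it was −0.50 (limma adjusted p = 0.0705) in rod TRAP and −0.53 (limma adjusted p = 0.648) in retina. Without Abca4Ko replicate 1, the lowest library of its group, it was −0.28 (limma adjusted p = 0.236) and −0.56 (limma adjusted p = 0.468). All 15 alternatives kept the sign in each fraction, with a limma adjusted p between 0.0705 and 0.703 for rod TRAP and between 0.104 and 0.937 for retina. In retina the pigment epithelium markers had a median log2 difference of −0.73 and the 5 blood markers, headed by Hba-a1 and Hba-a2, one of −0.93, with 1 of 10 and 4 of 5 at an unadjusted limma p under 0.05, and their part in the retina values was not tested.

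Nxnl1 in rod TRAP had a log2 fold change of −0.16 (95% interval −0.34 to 0.03, limma adjusted p = 0.566), which was −0.20 (limma adjusted p = 0.0739) without Abca4Ko replicate 1 and −0.10 (limma adjusted p = 0.704) without the library labelled Abca4Ko replicate 3. Its scaled counts did not overlap between the genotypes, as for 17.6% of all genes tested there, although its TPM did, with 2 Abca4Ko libraries at 557.7 and 574.4 beside control libraries from 558.6 to 597.4. Nxnl2 in rod TRAP had a log2 difference of −0.10 (−0.43 to 0.23, limma adjusted p = 0.858). Abca4Ko replicate 1 at 315.7 TPM lay above all control libraries, and replicates 2 and 3 lay below them. Without Abca4Ko replicate 1 the Nxnl2 value was −0.31 (SE 0.06, limma adjusted p = 0.0044), which was the call mentioned above, and without the library labelled Abca4Ko replicate 3 it was 0.02. The sign and the call for Nxnl2 thus rested on single libraries. In retina Nxnl1 had a log2 difference of −0.11 (−0.56 to 0.33), or 0.04 without the library labelled Abca4Ko replicate 3, and Nxnl2 one of −0.24 (−0.85 to 0.37), the latter being −0.57 without Abca4Ko retina replicate 1 and −0.04 without the library labelled replicate 3.

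Among the glucose carriers, Slc2a1 had a log2 difference of −0.03 (95% interval −0.23 to 0.16) in rod TRAP and −0.32 (−0.74 to 0.10) in retina. Without the libraries labelled Abca4Ko replicate 3 these were −0.0050 and −0.27. Slc2a3 had a log2 difference of 0.06 (−0.30 to 0.42) in rod TRAP and −0.30 (−0.77 to 0.18) in retina, the latter being −0.05 without Abca4Ko retina replicate 1. Without the libraries labelled replicate 3 they were 0.20 and −0.38. Slc16a1 had a log2 difference of −0.0069 (−0.18 to 0.16) in rod TRAP, an interval of 0.884 to 1.12 as a fold, and of 0.20 (−0.23 to 0.63) in retina, against −0.02 and 0.22 without replicate 3. Bsg had a log2 difference of 0.20 (−0.07 to 0.47) in rod TRAP and −0.11 (−0.60 to 0.37) in retina, where the sign turned without replicate 3 (0.26 and 0.02). Txnip was tested only in retina, where it had a log2 difference of −0.41 (−1.13 to 0.32), or −0.07 without Abca4Ko retina replicate 1 and −0.47 without replicate 3. Slc16a7 was also tested only in retina, at 0.37 (−0.31 to 1.05), or 0.12 without replicate 3. Its TPM of 2.2, 2.4 and 2.0 in Abca4Ko lay above the 1.0, 1.5 and 0.4 of control. Its scaled counts did overlap, at 41, 70 and 110 in Abca4Ko against 51, 71 and 36 in control, so the 2 tables differed. On the scaled values the groups did not overlap for 19.9% of all genes tested in retina. Slc16a8 had a log2 difference of −0.06 (−0.54 to 0.43) in rod TRAP and −0.04 (−0.73 to 0.64) in retina, against −0.11 and −0.12 without replicate 3. Cone markers, led by Arr3 and Opn1sw, summed to 566, 701 and 644 TPM in Abca4Ko rod TRAP and to 478, 455 and 461 TPM in control rod TRAP. Their 9 log2 differences in rod TRAP ran from 0.24 to 0.693 (median 0.436). Of these 1 was called and 8 had an unadjusted limma p under 0.05, against 1.13% and 10.4% of all genes. In retina the cone median was −0.242, with 0 called and 2 at the unadjusted threshold, against 0.106% and 12%. The part of cone messages in the rod TRAP values was not tested.

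**Figure D4:**
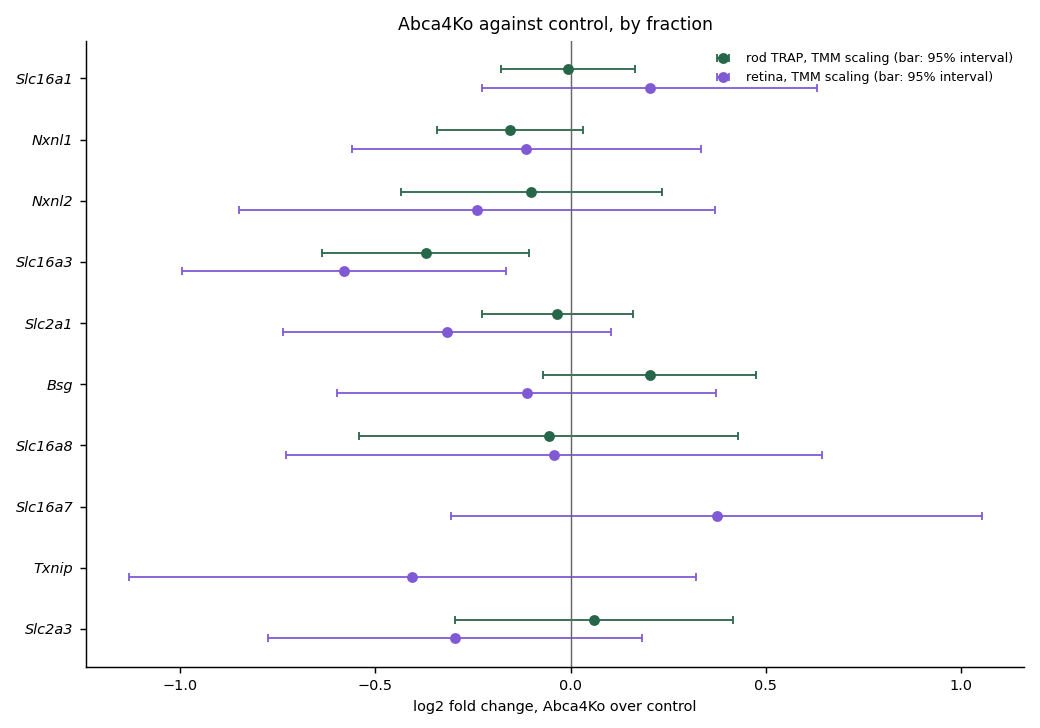
Log2 fold change of Abca4Ko over control (horizontal axis) with 95% limma intervals for the members tested in rod TRAP (green, 8 genes) and in retina (purple, 10 genes). The intervals of Slc16a3 lay below 0 in both fractions, all others included 0, and no member passed the adjusted threshold.

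The difference between the fractions in their genotype effect was tested as an interaction over all 12 libraries. None of the 10 members was called with limma, and 0 had an unadjusted limma p under 0.05, against 0.00579% of 17273 genes called and 11.3% at the unadjusted threshold. The values ran from −0.33 for Slc16a7 (95% interval −1.12 to 0.45) to 0.33 for Slc2a3 (−0.24 to 0.90). The interval for Slc16a3 was −0.32 to 0.69. Of the related genes none was called for genotype, 0 of 19 tested in rod TRAP and 0 of 33 in retina, with 4 and 0 at an unadjusted limma p under 0.05. Arrdc3 was among the 4, named after its values were seen, with a value of −0.41 on the log2 scale (limma adjusted p = 0.302). None of 33 was called in the interaction.

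Patterns across the 12 libraries were compared by Pearson's r of log2(TPM + 1) among 10368 genes with a mean of at least 5 TPM. These r values describe likeness only, since the libraries fall into 2 fractions that set most of the variation. The genes most like Nxnl1 were Crx, Pde6a and Gnb1, with r from 0.995 to 0.997, and those most like Nxnl2 were Guca1b, Arl3 and Kpna2, with r of 0.977 to 0.98. Slc16a1 was closest to Rps6kb1, Fam149a and Dpf3 (r = 0.997 each), and Slc2a3 to Begain, Sez6l and Abr, with r of 0.998 to 0.999. For Slc16a8 the 3 closest genes were Desi1, Zdhhc3 and Ttr (r = 0.963 to 0.972), the last of which is on the pigment epithelium list. Slc2a1, which varied less between fractions, was closest to Sil1, Kdm4b and Ncstn (r = 0.94 to 0.95), and Slc16a3 to Ctsa, Cwf19l1 and Oscp1 (r = 0.94 to 0.97). Bsg had the lowest top values, for Tspan31, Retreg3 and Prmt1 (r = 0.883 to 0.926). Among the members themselves, Slc16a1 and Nxnl1 had r = 0.984, Slc2a1 and Slc16a3 0.860, and Slc2a3 and Nxnl1 −0.955. Txnip went with Slc39a1, Azin2 and H1f0 (r = 0.993 to 0.994), and Slc16a7 with Nudt4, Vti1b and Letm2 (r = 0.96 to 0.97).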

How the data were processed

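Per the labels, polyA RNA from 5 ng of lysate RNA or 10 ng of TRAP RNA was converted with a low-input kit, and libraries were made from 5 ng of cDNA. The submitters' processing notes name CASAVA 1.8.2, HISAT2, DESeq2, edgeR and build GRCm39 with no role, and the annotation, counter and strand setting are not given in the sources used here. The authors deposited a score, called scaled count here (read counts times 1 factor per library, rounded), and TPM to 1 decimal. The factors were read from gaps and doubled low values, a procedure tested on 10 simulated libraries (largest error 0.0274%). Since the deposited score is not a raw count, no count test was run. Scaled counts were rescaled by TMM (trims 0.3 and 0.05) and tested as log2(CPM + 0.5) with limma 3.58.1 (trend, robust, two-sided) in R 4.3.3, for genes with at least 10 scaled counts in at least 3 libraries of a fit, with Benjamini-Hochberg adjustment over all genes and a call at an adjusted p under 0.05. SE and intervals are limma's, and fold changes of low genes are understated. Exact intervals cover counting error only. Nothing says that replicates are separate animals, so p-values measure the spread between these libraries. Same-numbered rod TRAP and retina libraries deviated together over 10340 genes (r from 0.160 to 0.178 in control and 0.209 to 0.575 in Abca4Ko), so the numbers pair the fraction comparisons. Members and lists were chosen with earlier results of these data known. Named genes are the members, Abca4, the first 2 markers of a list (with 2 endothelial markers listed at 0 and with Pmel, Mlana and Tyrp1, chosen after their values were seen), up to 3 related genes in each direction that were called, had the largest change and reached a mean of 1 TPM, and the 3 genes most like each member. Some genes that this rule names are not reported here. Other steps used Python 3.11.15, numpy 2.4.6, scipy 1.17.1, pandas 2.3.3 and matplotlib 3.10.9. Promoters are from RefSeq on GRCm38.p6, since no GRCm39 genome was used here.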

Additional observations from a re-analysis of the deposited data

How the results depend on the processing

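Each call was repeated with median-of-ratios scaling, the authors' scaling, other filters, pseudocounts and TPM, all 12 libraries in 1 fit, the replicate block, and each library left out, and leaving out both fractions of Abca4Ko replicate 1 or 3 was added after seeing the data. Of 796 such values for the members, 731 kept their direction and their side of the threshold. The authors' scaling reversed Slc2a1 to −0.34 in control and −0.062 in Abca4Ko, and Bsg to −0.49 and −0.18, in the fraction comparisons. On log2(TPM + 1) Slc2a1 was −0.0086 and Bsg −0.22 for fraction in control, Slc2a3 −0.080 for genotype in rod TRAP and Slc16a8 0.32 for the interaction. The replicate block called Slc2a1 in control (0.31, limma adjusted p = 0.0457) and changed no other member's call, and for genotype in retina, where the numbers do not pair the libraries, it gave 46 genes called against 18. With 1 library left out, 0 to 1 members were called for genotype in rod TRAP (1 without Abca4Ko replicate 1). In the same runs the values for genotype in rod TRAP ranged from −0.10 to 0.0043 for Slc2a1, −0.048 to 0.20 for Slc2a3, −0.027 to 0.026 for Slc16a1, −0.21 to 0.034 for Slc16a8 and −0.31 to 0.019 for Nxnl2. For genotype in retina they ranged from −0.30 to 0.29 for Slc16a8, −0.25 to 0.056 for Bsg and −0.30 to 0.041 for Nxnl1, and for fraction in control from −0.016 to 0.19 for Bsg. For the interaction they ranged from −0.36 to 0.19 for Slc16a8, −0.24 to 0.091 for Nxnl1, −0.10 to 0.42 for Nxnl2 and −0.050 to 0.60 for Txnip. Without both libraries labelled Abca4Ko replicate 3, 4 members and 7 related genes were called for fraction in Abca4Ko, against 9 and 24, and the interaction was −0.015 for Slc16a3. Without both of replicate 1 there were 15 related genes, and the interaction was 0.28 for Slc16a8, 0.083 for Nxnl1 and −0.0096 for Txnip. With 1 library left out, 16 to 27 related genes were called for fraction in control and 10 to 24 in Abca4Ko (control: 16 without retina replicate 1, 17 without replicate 2; Abca4Ko: 15, 10 and 12 without retina replicates 1, 2 and 3), and were 15 in Abca4Ko at a filter of 50 scaled counts, since fewer low genes are then tested. All genes called for genotype in rod TRAP ranged from 30 (without control replicate 2) to 594 (without Abca4Ko replicate 1), against 148, and were 36 and 33 without control replicates 1 and 3, 47 on log2(TPM + 1) and 94 with all 12 libraries in 1 fit. In retina, against 18, they were 1, 4, 10 and 1 without Abca4Ko replicate 1 or 2 or control replicate 1 or 3, 33 with no filter, 9 at a filter of 50, 38 on log2(TPM + 1) and 62 with all 12 libraries. For fraction in Abca4Ko, against 10280, they were 6595 without retina replicate 2 and 5716 without both of replicate 3, and for the interaction 3 on log2(TPM + 1) against 1. With 3 libraries a group, the width of the intervals limits what could be seen, and Slc16a7 and Txnip were too low in rod TRAP to test for genotype.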
